A study of Mus musculus with 8 samples.

Results

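Messenger RNA of 10 genes of mouse antigen presentation was followed through 8 sequencing libraries. The genes were taken by symbol from deposited tables of 14042 gene symbols, and all 10 were present in every table. They are the class II genes H2-Ea-ps, H2-Eb1, H2-Aa and H2-Ab1 with the invariant chain gene Cd74, and the class I genes H2-K1, H2-D1, H2-Q2, Gm8909 and Gm11127. H2-Ea-ps, H2-Q2, Gm8909 and Gm11127 were chosen by their levels in these same tables, which had been seen to differ between the TFH and the naive libraries, and the other 6 to stand beside them, so that difference is described here without a test.

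The libraries form 4 groups of 2. TFH KO and TFH WT are donor CD4 T cells with CXCR5 and high PD1 on their surface, sorted from the spleens of (bxd)F1 mice, 7 days after these had received spleen cells depleted of CD8 cells from C5aR1-/- (KO) or wild type (WT) donors. These 2 receptors mark T follicular helper (TFH) cells, which help B cells make antibody, and C5aR1 is a receptor for the complement fragment C5a. Naive KO and naive WT are CD4 T cells sorted as CD62L high and CD44 low from C5aR1-/- or wild type mice. The donor strain and the number of animals behind a library are not given in the labels, and the host's own cells remain in an F1 recipient beside the transferred ones. TFH and naive libraries therefore differ in cell type, transfer and host at once, and these cannot be told apart.

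Class II molecules are pairs of an alpha and a beta chain that show peptides to CD4 T cells. Mice can make I-A, from H2-Aa and H2-Ab1, and I-E, from H2-Ea and H2-Eb1, with the invariant chain CD74 guarding the new pair on its way to the endosome. B cells, dendritic cells and macrophages carry these molecules, and mouse T cells transcribe the genes little. Strains of the b haplotype, such as C57BL/6, do not express the I-E alpha chain, so that the reference genome lists it as the pseudogene H2-Ea-ps, whereas strains of the d haplotype, such as DBA/2, express it. A (bxd)F1 mouse is by usual naming a cross of those haplotypes. Class I molecules pair a heavy chain with beta-2 microglobulin and show peptides to CD8 T cells. H2-K1 and H2-D1 encode the classical heavy chains found on almost every cell, and the Q and T regions of the complex hold many related, less variable genes.

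The genes other than Cd74 lie on chromosome 17 of GRCm38 in GENCODE. H2-Ea-ps, typed there as a polymorphic pseudogene, spans chr17:34341959-34344645 on the minus strand, and H2-Eb1 spans chr17:34305867-34316674 on the plus strand. H2-Q2 lies at chr17:35342242-35346762 on the plus strand, Gm11127 at chr17:36055816-36058371 on the minus strand and Gm8909 at chr17:36164443-36168537 on the minus strand. RefSeq promoter windows on GRCm38.p6 were at hand for 7 of the 9 genes on chromosome 17, H2-Ea-ps and H2-Ab1 being the exceptions. Bases upstream of 2 class II and 2 class I genes are shown. The levels of H2-Eb1 and H2-Aa followed each other over the libraries, as did those of H2-Q2 and Gm8909. H2-Q2 and Gm8909 had both been chosen for the gap between TFH and naive libraries, so their likeness follows in part from that choice. Whether promoter sequence bears on these levels was not tested. The capitals mark the Y box CTGATTGG, the site of the factor NF-Y in promoters of MHC genes, and the last 2 sequences do not hold these exact letters. Variants of the site were not looked for.

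H2-Eb1, plus strand, chr17:34305717-34305866: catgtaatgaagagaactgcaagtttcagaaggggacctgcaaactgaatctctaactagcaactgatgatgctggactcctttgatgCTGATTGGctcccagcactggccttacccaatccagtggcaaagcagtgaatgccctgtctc
H2-Aa, minus strand, chr17:34287824-34287973: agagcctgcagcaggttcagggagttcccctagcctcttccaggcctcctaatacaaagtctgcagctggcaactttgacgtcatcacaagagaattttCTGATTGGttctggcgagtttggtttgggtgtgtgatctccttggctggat
H2-Q2, plus strand, chr17:35342157-35342241: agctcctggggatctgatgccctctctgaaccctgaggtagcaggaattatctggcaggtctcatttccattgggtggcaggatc
Gm8909, minus strand, chr17:36168538-36168687: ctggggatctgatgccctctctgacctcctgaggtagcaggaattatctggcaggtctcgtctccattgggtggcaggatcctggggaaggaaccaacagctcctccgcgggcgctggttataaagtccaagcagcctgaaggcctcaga

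The Y box was looked for on both strands of windows from 250 bases before to 50 bases after each start. It lay in the windows of H2-Eb1, H2-Aa, H2-D1 and H2-K1 and in 4.10% of all 32851 windows. In H2-K1 it lay next to the annotated start, while in H2-Eb1, H2-Aa and H2-D1 it lay 62, 51 and 53 bases before the start. The windows of H2-Q2, Gm8909 and Gm11127 did not hold these letters. The windows of H2-Q2 and Gm8909 were identical at 86.7% of aligned positions, against 49.5% for H2-Q2 and Gm11127.

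Levels are deposited log2 values, which ran from 1.16 to 19.48 and had been brought to a common distribution over the libraries before deposit. Since it is not given whether they account for gene length, levels are compared between libraries and not between genes. The depth of the libraries is unknown, and with 2 libraries a group the spread between them limits every value. Of the sort markers, Pdcd1, which encodes PD1, lay at 11.88 to 12.85 in the TFH libraries and 10.80 to 11.97 in the naive libraries. Cxcr5 transcripts lay at 10.85 to 11.56 in the TFH libraries and 11.56 to 12.45 in the naive libraries, and Cd44 transcripts at 11.97 to 12.11 in the TFH libraries and 12.53 to 13.04 in the naive libraries, both against the surface pattern of the sorts. The second library of each TFH group stood apart from the first in markers of other cell types, most of all B cells. All 20 measured of 23 listed B cell markers were higher in the second library in TFH KO, by a median log2 difference of 3.66. All 20 were higher in TFH WT, by a median of 2.14. Of 22 myeloid and dendritic cell markers, 22 were higher in TFH KO, by a median of 1.27, and 19 in TFH WT, by 0.65. Of 14 CD8 T and NK cell markers, 13 were higher in TFH KO, by 0.47, and 11 in TFH WT, by 0.31. Of all 14042 genes, 5835 were higher in the second TFH KO library and 6107 in the second TFH WT library. Naive KO library 1 stood apart in sex-linked genes, with Xist at 14.61 against 4.44 to 5.56 in the other 7 libraries.

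H2-Ea-ps, the I-E alpha gene, gave the sharpest contrast. Its level was 8.21 and 12.44 in TFH KO, 8.22 and 11.03 in TFH WT, 1.16 and 1.79 in naive KO, and 1.16 and 1.79 in naive WT. All 4 TFH libraries lay above all 4 naive libraries, and in each naive library the gene held the lowest or the second lowest rank of the 14042. Of all genes it had the largest mean difference between TFH and naive libraries, 8.50 on the log2 scale. The naive values are at the bottom of the deposited scale, where 1.16 is the lowest value in any table, so the size of that difference rests on how undetected genes were set and no fold is given.

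Within the TFH libraries the gene varied widely. The second library exceeded the first by 4.22 in TFH KO and by 2.81 in TFH WT, and the libraries of each genotype straddled one another. TFH KO averaged 10.32 ± 2.99 and TFH WT 9.62 ± 1.99 (SD, n = 2 each), and the 2 groups did not separate.

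H2-Eb1 encodes the beta chain that pairs with the product of H2-Ea. Its level was 9.23 and 13.44 in TFH KO, 9.21 and 12.05 in TFH WT, 12.06 and 12.34 in naive KO, and 12.29 and 10.89 in naive WT. All 4 naive libraries lay above the first libraries of both TFH genotypes and below the second TFH KO library, and TFH and naive ranges overlapped.

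The I-A chain genes repeated this picture. H2-Aa, the I-A alpha chain, lay at 9.64 and 13.90 in TFH KO, 9.57 and 12.43 in TFH WT, 12.45 and 12.74 in naive KO, and 12.71 and 11.26 in naive WT. H2-Ab1, the I-A beta chain, lay at 9.51 and 13.79 in TFH KO, 9.47 and 12.24 in TFH WT, 12.14 and 12.51 in naive KO, and 12.50 and 11.11 in naive WT. For both genes the second TFH KO library was the highest of the 8 and the first libraries of both TFH genotypes were the lowest.

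Cd74, the invariant chain, lay at 11.40 and 15.48 in TFH KO, 11.58 and 13.92 in TFH WT, 13.89 and 14.21 in naive KO, and 14.41 and 13.20 in naive WT. Here too the second TFH KO library was the highest and the first libraries of both TFH genotypes the lowest. The mean differences between TFH and naive libraries were between -0.91 for H2-Eb1 and -0.81 for H2-Ab1 in these 4 genes, with overlapping ranges. With the second library of both TFH groups left out, the TFH minus naive difference was between -2.98 and -2.65 for these 4 genes in KO cells and between -2.42 and -2.23 in WT cells. For H2-Ea-ps it was then 6.74 in either genotype. The libraries left out held the higher class II levels of each TFH group, H2-Ea-ps included. Each of these differences was therefore lowered by that choice.

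**Figure D1:**
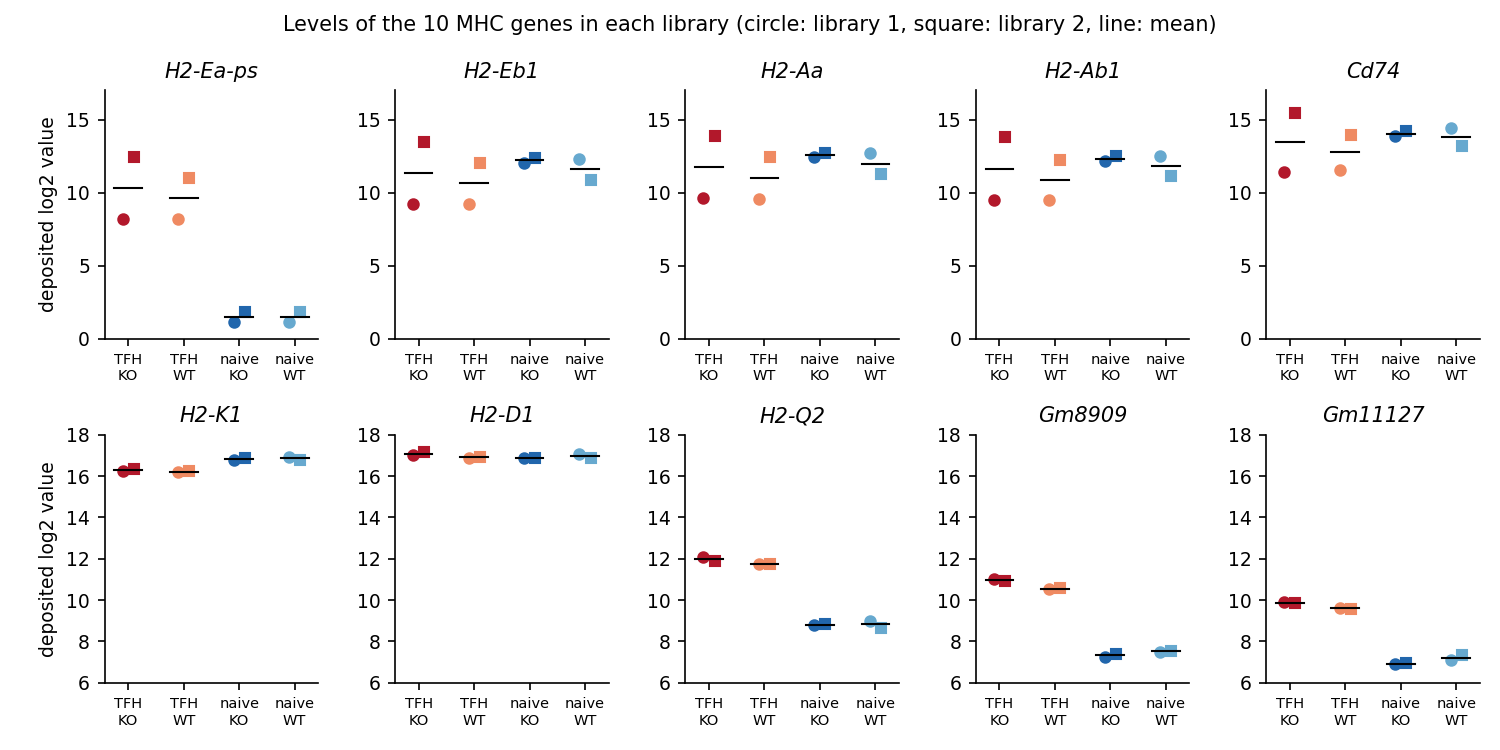
Deposited log2 values of the 10 genes by group, class II genes in the upper row on axes from 0 and class I genes in the lower row on axes from 6. Circles are first libraries, squares second libraries and lines group means. H2-Ea-ps lies between 8.21 and 12.44 in TFH libraries and at 1.79 or below in naive libraries, while the other class II genes overlap between them.

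Set against its neighbours in the same library, H2-Ea-ps kept a nearly fixed distance in the TFH libraries. Its level minus that of H2-Eb1 was -1.02 and -1.01 in TFH KO, -0.996 and -1.02 in TFH WT, -10.91 and -10.55 in naive KO, and -11.13 and -9.10 in naive WT. The TFH values lay within 0.03 of each other although either gene alone moved by over 4 log2 units across those libraries. The naive values lay more than 8 log2 units lower.

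The same held against the mean of H2-Aa, H2-Ab1, H2-Eb1 and Cd74. The difference was -1.73 and -1.72 in TFH KO, -1.74 and -1.63 in TFH WT, -11.48 and -11.16 in naive KO, and -11.82 and -9.82 in naive WT. Against H2-Ab1 alone it ran from -1.36 to -1.21 in TFH libraries and from -11.34 to -9.32 in naive libraries. A difference taken within a library does not change with any shift of the whole library.

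Likeness was measured as the root mean square difference between log2 profiles, each centred on its own mean. Over all 8 libraries the genes most like H2-Aa were H2-Eb1 at 0.03, H2-Ab1 at 0.07, Cd74 at 0.20, and the B cell receptor signalling chains Cd79b at 0.36 and Cd79a at 0.40. In likeness to H2-Aa, H2-Ea-ps ranked last of the 14041 other genes, at 4.74. It also ranked last in likeness to H2-K1, at 4.72, and to H2-D1, at 4.39. The gene had been chosen for its gap between TFH and naive libraries, and its naive values lie at the bottom of the scale. Its distance from any gene over the 8 libraries therefore largely restates that gap. No gene followed H2-Ea-ps closely over the 8 libraries: the nearest were Maff at 1.93, Fosb at 1.94, Gcg at 2.01, Gpr3 at 2.04 and Tnfaip3 at 2.05, genes that were also higher in TFH libraries.

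Over the 4 TFH libraries alone, a subset taken after the values had been seen, H2-Ea-ps stood with the class II genes. The gene nearest to H2-Ea-ps among 14041 was H2-Eb1 at 0.009, followed by H2-Aa at 0.04, H2-Ab1 at 0.05, Cd79a at 0.17 and Cd74 at 0.17. The B cell surface gene Ms4a1, which encodes CD20, lay at 7.12 and 11.38 in TFH KO, 6.70 and 9.88 in TFH WT, 10.51 and 9.34 in naive KO, and 9.52 and 8.68 in naive WT. These libraries share one step, the gap between first and second TFH libraries, so the ranking rests on few independent points.

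**Figure D2:**
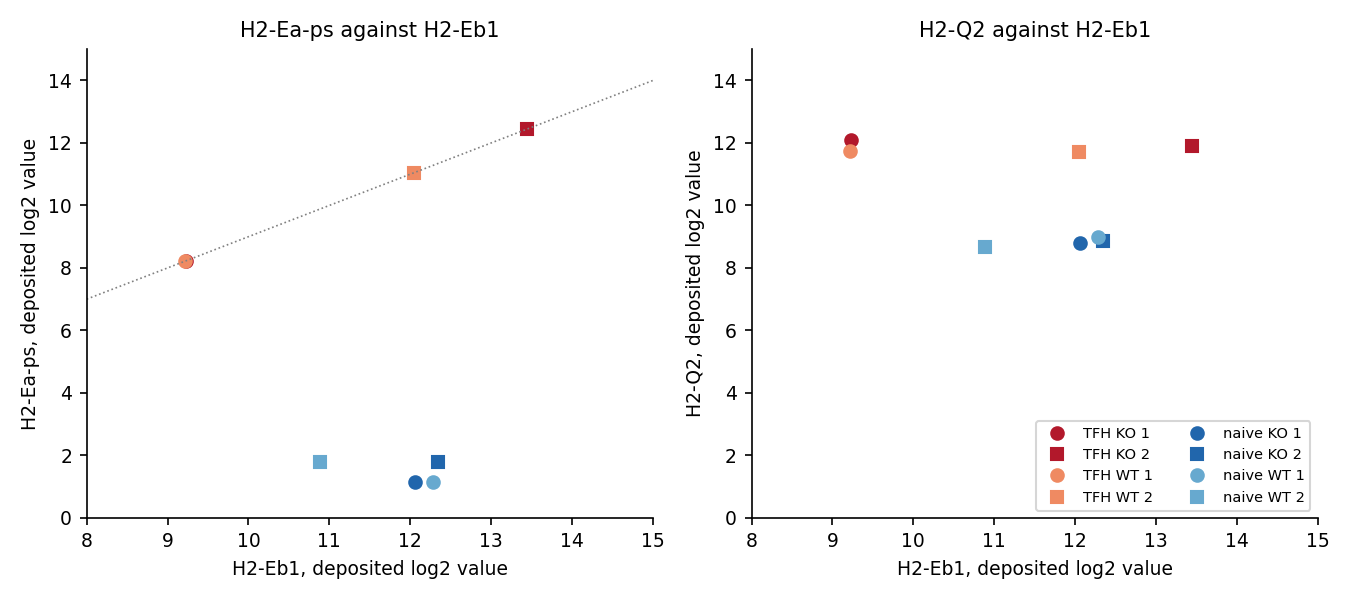
H2-Ea-ps (left) and H2-Q2 (right) against H2-Eb1, each point 1 library and both axes deposited log2 values. On the left the 4 TFH libraries lie on the dotted line drawn 1 log2 unit below equality, with both first libraries on top of each other, and the 4 naive libraries lie at 1.79 or below. On the right H2-Q2 stays between 11.72 and 12.11 in the TFH libraries whatever the level of H2-Eb1.

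The markers of class II bearing cells moved as follows. The log2 of the summed level of the 20 measured B cell markers was 13.26 and 15.85 in TFH KO, 13.39 and 14.62 in TFH WT, 14.60 and 14.00 in naive KO, and 14.23 and 13.66 in naive WT. For 22 measured of 26 listed myeloid and dendritic cell markers it was 13.19 and 14.24 in TFH KO, 13.31 and 13.98 in TFH WT, 14.75 and 15.02 in naive KO, and 16.25 and 14.81 in naive WT. The lowest value of a listed B cell or myeloid marker in any library was 3.33. That is low on the deposited scale, so detection of every marker in every library is not shown. The part of these cells in the class II levels was not tested. In bulk RNA, more cells of a type and more RNA per cell cannot be told apart. Ciita, the master regulator of class II transcription, lay at 7.82 and 11.37 in TFH KO, 7.61 and 10.01 in TFH WT, 9.50 and 9.07 in naive KO, and 9.10 and 8.38 in naive WT, again highest in the second TFH KO library and lowest in the first TFH libraries.

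Among the class I genes, H2-Q2, Gm8909 and Gm11127 were set apart from the classical pair, and unlike the class II genes they scarcely differed between first and second libraries. H2-Q2, a Q region heavy chain gene, lay at 12.11 and 11.91 in TFH KO, 11.73 and 11.72 in TFH WT, 8.78 and 8.85 in naive KO, and 8.98 and 8.66 in naive WT. The lowest TFH library was more than 2 log2 units above the highest naive library.

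Gm8909, a predicted gene annotated as protein coding, lay at 11.00 and 10.90 in TFH KO, 10.54 and 10.57 in TFH WT, 7.26 and 7.40 in naive KO, and 7.50 and 7.54 in naive WT. Gm11127, likewise predicted and annotated as protein coding, lay at 9.93 and 9.84 in TFH KO, 9.60 and 9.59 in TFH WT, 6.89 and 6.96 in naive KO, and 7.09 and 7.33 in naive WT. The mean differences between TFH and naive libraries were 3.33 for Gm8909, 3.05 for H2-Q2 and 2.67 for Gm11127, ranks 36, 51 and 78 of 14042 from the highest. As for H2-Ea-ps, all 4 TFH libraries lay above all 4 naive libraries, a pattern that 18.2% of all genes showed and on which these genes had in part been chosen. With the second TFH libraries left out the difference was 3.67 in KO and 3.02 in WT cells for Gm8909, 3.29 in KO and 2.91 in WT cells for H2-Q2, and 3.001 in KO and 2.39 in WT cells for Gm11127.

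The classical genes had smaller mean differences between TFH and naive libraries, -0.59 for H2-K1 and 0.08 for H2-D1. H2-K1 lay at 16.26 and 16.33 in TFH KO, 16.20 and 16.24 in TFH WT, 16.80 and 16.85 in naive KO, and 16.93 and 16.80 in naive WT. Its 4 TFH libraries lay below all 4 naive libraries, as they did for 20.3% of all genes. H2-D1 lay at 17.02 and 17.16 in TFH KO, 16.87 and 16.95 in TFH WT, 16.85 and 16.89 in naive KO, and 17.05 and 16.87 in naive WT, and its groups overlapped.

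Within each library the distance to the classical pair was smaller in TFH than in naive libraries. H2-Q2 minus the mean of H2-K1 and H2-D1 was -4.53 and -4.83 in TFH KO, -4.81 and -4.87 in TFH WT, -8.04 and -8.02 in naive KO, and -8.01 and -8.17 in naive WT. For Gm8909 it ran from -6.03 to -5.64 in the TFH libraries and from -9.57 to -9.30 in the naive libraries. For Gm11127 it ran from -7.00 to -6.71 in the TFH libraries and from -9.93 to -9.50 in the naive libraries. The first and second TFH libraries, which differed by several log2 units in class II genes, differed by 0.30 in TFH KO and 0.06 in TFH WT in the distance of H2-Q2.

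**Figure D3:**
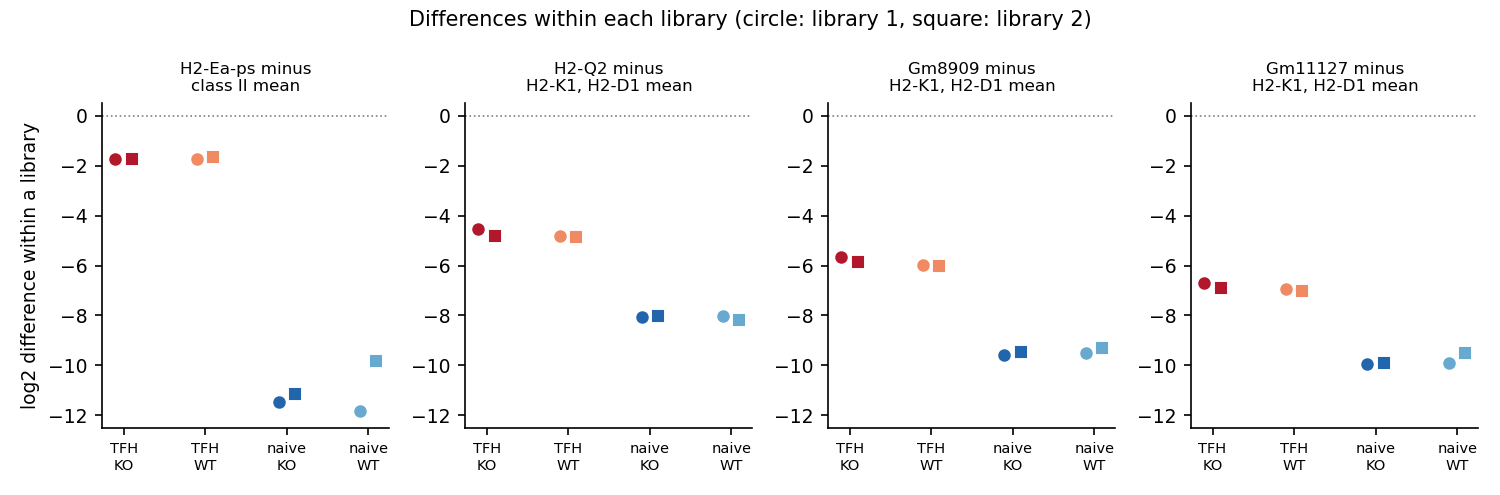
Log2 differences within each library, from left to right H2-Ea-ps minus the mean of the 4 other class II genes, and H2-Q2, Gm8909 and Gm11127 each minus the mean of H2-K1 and H2-D1. Circles are first and squares second libraries, and the dotted line marks 0. In every panel the 4 TFH libraries lie above the 4 naive libraries, and in the first panel the TFH values span only -1.74 to -1.63.

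The genes with profiles most like that of Gm8909 over the 8 libraries were the chaperone gene Dnajb9 at 0.17, the ubiquitin ligase gene Siah2 at 0.18, H2-Q2 at 0.19, the MAP kinase phosphatase gene Dusp10 at 0.22 and the transcription factor gene Klf11 at 0.22. Gm11127 ranked 26 at 0.34, H2-D1 5110 and H2-K1 12692 of 14041. H2-Ea-ps ranked 13976 at 2.90. Its mean difference between TFH and naive libraries was 8.50 against 3.33 for Gm8909, and over the 4 TFH libraries alone the 2 profiles differed by 1.83. Over those 4 libraries Gm11127 ranked 61 in likeness to Gm8909, at 0.06, and H2-Q2 ranked 103, at 0.07. H2-Q2, Gm8909 and Gm11127 had been chosen for the gap between TFH and naive libraries. Their likeness over all 8 libraries follows in part from that choice.

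Reads of 51 bases cannot always be given to 1 class I gene. Of the windows of 51 bases in the longest GENCODE transcript, 77.8% in Gm11127 also occurred in another annotated gene, 40.0% of them all in Gm6034. The share was 28.9% in Gm8909, 8.17% in H2-Q2, 13.7% in H2-D1 and 7.57% in H2-K1, and 0% in H2-Ea-ps and H2-Eb1. The genes that shared windows with Gm11127 were not all of class I. Patj held 17.3% and Trpc6 13.8% of its windows, against 7.03% for H2-D1. How the authors treated reads that fit several genes is not given in the sources used here, so the values of Gm11127 and, less so, Gm8909 are uncertain as to gene. The windows were compared among transcripts of the reference genome alone. They do not show where reads from another haplotype were placed, and this limit holds for H2-Q2 as well. Gm6034 itself is a class I row whose TFH minus naive difference was not called in either genotype.

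The other class I heavy chain genes, from a list of the family, moved both ways between TFH and naive cells. Of 21 measured besides the 5 above, 4 rose and 3 fell in KO cells, with a median log2 difference of 0.15, against 9.12% and 10.4% of all genes called higher and lower. In WT cells 3 rose and 3 fell, with a median of 0.26, against 12.6% and 13.7% of all genes. Rises and falls are calls of limma at a Benjamini-Hochberg adjusted p under 0.05, with adjustment over the 14042 genes.

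H2-Q10, in mice a secreted class I molecule made mainly by liver, rose by 2.16 ± 0.15 in KO cells (log2 difference ± SE, n = 2 libraries a group; limma adjusted p = 4.22e-06) and by 1.29 ± 0.15 in WT cells (limma adjusted p = 0.000163). H2-Q1 rose by 1.49 ± 0.23 in KO cells and 1.35 ± 0.23 in WT cells. The pseudogene H2-T-ps rose by 0.51 ± 0.11 in KO and 0.35 ± 0.11 in WT cells, and lost its call in WT cells without any one of the 4 WT libraries, at limma adjusted p of 0.104 to 0.152. Its KO call was lost without naive KO library 1, at 0.42 and a limma adjusted p of 0.0551. H2-Q5 was called in KO cells alone, at 0.69 ± 0.20 against 0.39 ± 0.20 in WT cells, and the genotype difference itself was not called (limma adjusted p = 0.997). It lost its KO call without TFH KO library 2, without either naive KO library or without either naive WT library, at limma adjusted p of 0.0730 to 0.215.

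H2-Q7 and H2-Q9, nonclassical genes of the Qa-2 family, fell by 0.69 ± 0.12 and 0.71 ± 0.11 in KO cells and by 0.86 ± 0.12 and 0.89 ± 0.11 in WT cells. Mr1, which presents vitamin metabolites to MAIT cells, fell by 0.46 ± 0.14 in KO and 0.65 ± 0.14 in WT cells. Its KO call was lost without TFH KO library 2, at -0.30, without naive KO library 2, at -0.33, and also without any one of the WT libraries. These 3 falls depend on the scaling of the libraries: with all libraries set to 1 median level of T cell identity genes, the median of all genes moved to 0.43 in KO and 0.57 in WT cells, and H2-Q7, H2-Q9 and Mr1 lay at -0.25, -0.26 and -0.01 in KO cells, all uncalled, and at -0.30, -0.32 and -0.09 in WT cells, where Mr1 was uncalled. Under that scaling 94.9% of the calls in KO cells and 95.3% in WT cells were rises, against 46.6% and 48.0% as deposited.

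**Figure D4:**
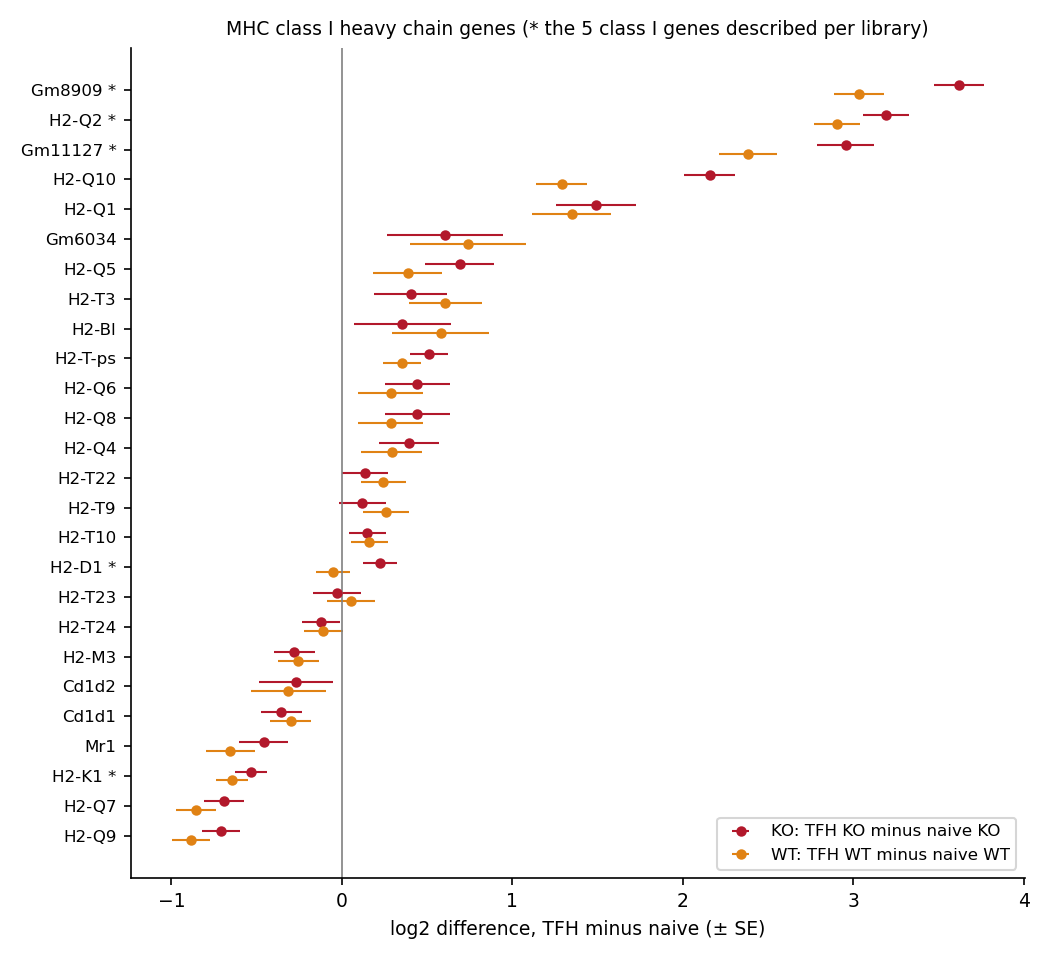
TFH minus naive log2 differences with SE for 26 measured class I heavy chain genes, KO cells in red above WT cells in orange on each row. Asterisks mark the 5 genes described per library. Gm8909, H2-Q2 and Gm11127 lie furthest to the right, between 2.38 and 3.62, and H2-Q7 and H2-Q9 furthest to the left, between -0.89 and -0.69.

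The partners and regulators are read against the same shares of all genes, 9.12% called higher and 10.4% lower in KO cells and 12.6% higher and 13.7% lower in WT cells. Of 15 genes for the class I light chain and peptide loading, 1 rose and 1 fell in KO cells and none rose and 1 fell in WT cells, with list medians of -0.01 in KO and 0.04 in WT cells, counts not above those shares. B2m, which encodes beta-2 microglobulin, fell by 0.39 ± 0.10 in KO and 0.38 ± 0.10 in WT cells, but stood at 0.06 in KO and 0.18 in WT cells under the T cell scaling. Its WT call was lost without TFH WT library 2 or naive WT library 1, and its KO call without TFH KO library 1, TFH KO library 2 or naive KO library 2, with values between -0.41 and -0.31. Calr, the chaperone calreticulin, rose by 0.60 ± 0.11 in KO cells and was not called in WT cells at 0.29 ± 0.11, and the genotype difference itself was not called, at 0.31 ± 0.16 (limma adjusted p = 0.997).

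Of 11 class II loading and processing genes besides Cd74, none rose and 1, the protease gene Ctss, fell in each genotype, with medians of -0.13 in KO and -0.42 in WT cells, again not above the shares of all genes. Ctss fell by 0.44 ± 0.13 in KO and 0.60 ± 0.13 in WT cells, and lay at 0.003 in KO and -0.04 in WT cells under the T cell scaling. Its KO call was lost without either TFH KO library or naive KO library 2, and its WT call without TFH WT library 2 or naive WT library 1.

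Of 12 regulators of MHC genes, 2 rose and none fell in each genotype, with medians of 0.07 in KO and 0.10 in WT cells, against 9.12% of all genes called higher in KO and 12.6% in WT cells. Irf1, an interferon-induced transcription factor, rose by 1.26 ± 0.18 in KO and 1.09 ± 0.18 in WT cells. Rfxap, a subunit of the RFX complex at class II promoters, rose by 0.48 ± 0.14 in KO and 0.49 ± 0.14 in WT cells, with values between 0.29 and 0.69 when single libraries were left out. Its KO call was lost without any one of the 4 KO libraries or the 2 TFH WT libraries, and its WT call without either TFH WT library or naive WT library 1. Nlrc5, the transactivator of class I genes, was not called, at 0.30 ± 0.13 in KO and 0.23 ± 0.13 in WT cells. Ciita was not called, at 0.31 ± 1.51 in KO and 0.06 ± 1.51 in WT cells. Without the second TFH libraries, which leaves a single TFH library in each genotype, Ciita stood at -1.46 in KO and -1.13 in WT cells. The libraries left out held the higher Ciita level of each TFH group, so that choice lowered both values.

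The other genes of the complex moved both ways. From H2-K1 to the end of Mog, chr17:33996017-37023398, 111 genes besides the 9 described were measured. Of these 12 rose and 9 fell in KO cells and 12 rose and 14 fell in WT cells, with medians of 0.00 in both genotypes, shares close to those of all genes. D17H6S53E fell by 1.59 ± 0.13 in KO and 1.68 ± 0.13 in WT cells. Ddr1, a collagen receptor, fell by 0.71 ± 0.13 in KO and 1.05 ± 0.13 in WT cells, and Ltb, which encodes lymphotoxin beta, by 0.67 ± 0.13 in KO and 0.87 ± 0.13 in WT cells. Under the T cell scaling Ddr1 and Ltb stayed lower but were not called in KO cells.

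Loss of C5aR1 was tested on the same genes, a comparison that had not been used to choose them. Among TFH libraries 0 of 14042 genes were called by limma, 0% of the table. An unadjusted limma p below 0.05 was found for 506, a smaller share of the table than that threshold. A limma fit of these 2 groups alone called 1. None of the 10 genes was called. The class II differences, KO minus WT, were H2-Ea-ps 0.70 ± 1.74, H2-Eb1 0.70 ± 1.83, H2-Aa 0.77 ± 1.85, H2-Ab1 0.79 ± 1.83 and Cd74 0.69 ± 1.69 (log2 ± SE, n = 2 libraries a group; limma adjusted p = 1 each). The 95% interval for H2-Ea-ps ran from -3.94 to 5.34, so differences of several log2 units either way were not detectable with these libraries. Without TFH KO library 2 all 5 differences turned negative, from -1.41 to -1.35, and without TFH WT library 1 they lay between -0.71 and -0.48.

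The class I genes were measured far more tightly. In the TFH libraries the KO minus WT difference was 0.40 ± 0.15 for Gm8909, with a 95% interval of 0.08 to 0.72, an unadjusted p of 0.0196 and a limma adjusted p of 1. It was 0.28 ± 0.13 for H2-Q2, with an interval of -0.01 to 0.58, and 0.29 ± 0.17 for Gm11127, with an interval of -0.08 to 0.66. H2-D1 differed by 0.18 ± 0.10 and H2-K1 by 0.07 ± 0.09. For all 5 class I genes both KO libraries lay above both WT libraries, as they did for 16.5% of all genes.

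Among naive libraries 10 genes were called, 0.0712% of the table, and none of the 10 described here. The KO minus WT difference was -0.19 ± 0.15 for Gm8909, -0.29 ± 0.17 for Gm11127, -0.01 ± 0.13 for H2-Q2, -0.09 ± 0.10 for H2-D1 and -0.04 ± 0.09 for H2-K1. For Gm8909 and Gm11127 both naive KO libraries lay below both naive WT libraries, a pattern shown by 11.2% of all genes. The 2 patterns together, KO above WT in TFH and below WT in naive libraries, were shown by 2.76% of all genes. The 4 expressed class II genes differed by between 0.25 ± 1.69 for Cd74 and 0.62 ± 1.83 for H2-Eb1. These SEs equal those of the TFH comparison, since the spread was pooled over all groups, and do not measure the naive libraries alone. For H2-Eb1 the naive SDs were 0.20 (KO) and 0.99 (WT), against TFH SDs of 2.983 (KO) and 2.005 (WT). H2-Ea-ps differed by 0.00 ± 1.74. Its naive values, 1.16 and 1.79 in either genotype, lie at the bottom of the scale, so this does not show equal expression.

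The genotype difference in TFH cells minus that in naive cells was 0.58 ± 0.21 for Gm8909, 0.57 ± 0.24 for Gm11127 and 0.29 ± 0.19 for H2-Q2. Unadjusted p-values were 0.0161, 0.0338 and 0.154, and the limma adjusted p was 0.997 for each. This interaction was called for 2 of 14042 genes, 0.0142%, and for none of the 10. Of the other class I genes, H2-Q10 had an interaction of 0.87 ± 0.21, at an unadjusted p of 0.00167 and a limma adjusted p of 0.931.

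**Figure D5:**
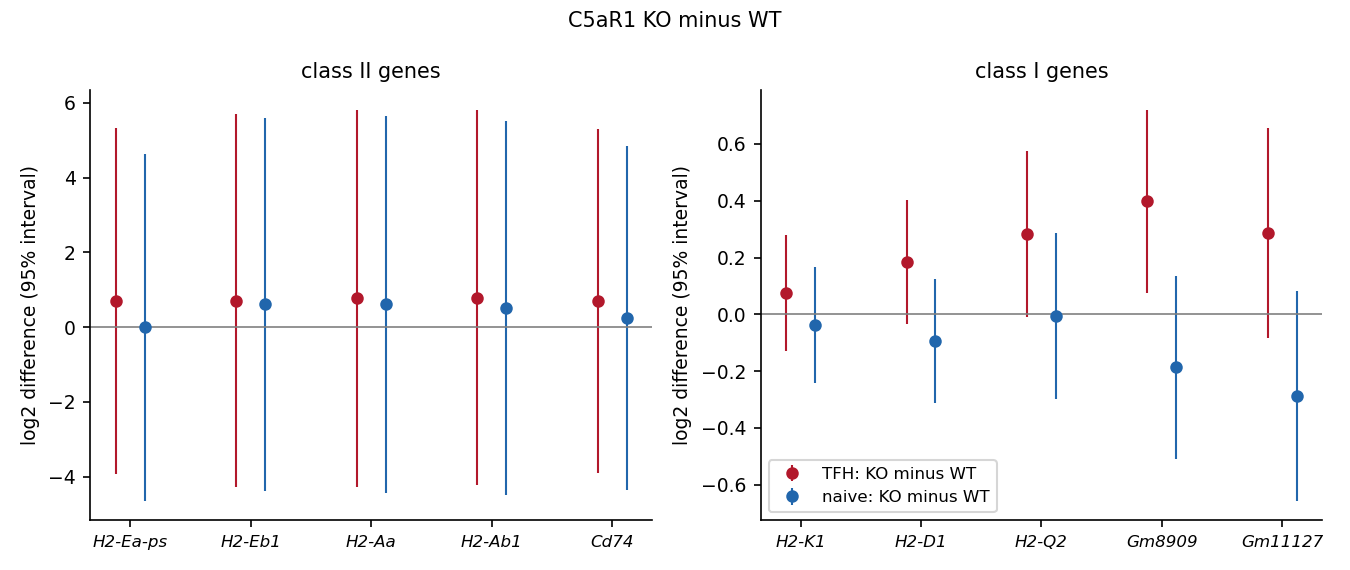
C5aR1 KO minus WT log2 differences with 95% intervals in TFH libraries (red) and naive libraries (blue), class II genes on the left and class I genes on the right, on axes of different range. The class II intervals reach to at least -3.91 and 4.64, while the class I intervals stay between -0.66 and 0.72. Every interval rests on a spread pooled over all groups. Only the interval of Gm8909 in TFH libraries lies wholly above 0, and its adjusted p was 1.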

How the data were processed

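The authors deposited 1 table of log2 expression values per library, 8 in all, with the same 14042 gene symbols. Per the labels' protocols, RNA from a spin-column kit was sequenced as single-end reads of 51 bases. Per the submitters' processing notes, BWA and the mouse build mm10 were used, while versions, counting tool, annotation and normalization are not stated in any source at hand. When ranked, the deposited log2 values of any library depart from the median library by at most 0.03 above the lowest percentile, so all share 1 distribution. Sequencing depth is therefore unknown, no counting interval is given, and a change common to most genes would not show.

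The 10 genes and all gene lists were chosen with earlier results of these data known. Named besides the 10 were called genes of each list (up to 6 by p), Ciita and Nlrc5, the 5 nearest profiles of H2-Ea-ps, Gm8909 and H2-Aa, and up to 6 called genes of the region; other genes named were chosen after their values had been seen. A linear model was fitted to all genes and libraries with limma 3.58.1 (R 4.3.3), trend and robust options, 4 residual degrees of freedom, and Benjamini-Hochberg adjustment over 14042 genes. There were 5 contrasts. With 2 libraries on each side an exact two-sided permutation p is at least 0.333, so none is given. The labels do not tie libraries to animals, so p-values measure the spread between samples, which may be technical. C5ar1 was not analysed here.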

Additional observations from a re-analysis of the deposited data

Results flagged for a closer look

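For Gm8909 and Gm11127 the genotype difference pointed in opposite directions in the 2 cell types: both TFH KO libraries lay above both TFH WT libraries, and both naive KO libraries lay below both naive WT libraries. Of all genes, 16.5% showed the TFH pattern, 11.2% the naive pattern and 2.76% both. For Gm8909 the KO minus WT log2 difference was 0.40 in TFH cells and -0.19 in naive cells. For Gm11127 it was 0.29 in TFH cells and -0.29 in naive cells. The difference between cell types itself, tested as an interaction in limma, was 0.58 ± 0.21 for Gm8909 and 0.57 ± 0.24 for Gm11127 and was not called, at an adjusted p of 0.997 for each. Of the 51-base windows of Gm11127, 77.8% also occur in another gene, inside or outside class I. The part of such shared reads in these values was not tested.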

How the results depend on the processing

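No paired analysis was possible because the labels give no replicate numbers, and first and second only name libraries in the order of deposit. The TFH minus naive levels of H2-Ea-ps, H2-Q2, Gm8909 and Gm11127 kept their direction under every alternative run. Without the second library of both TFH groups H2-Ea-ps stood at 6.74 in both genotypes. These genes had been chosen for that direction, and for each of them every TFH library lay above every naive library. Leaving libraries out could therefore not turn the direction, so these runs do not test it. Counts of called genes moved more. TFH KO against naive KO gave 2744 calls, 7143 at an equal T cell identity level, 1225 without the second TFH libraries, and 1399 to 2683 with single libraries left out. TFH WT against naive WT gave 3694, 9470, 2104, and 1991 to 3726. TFH KO against TFH WT gave 0, 1 with the compared groups only, and 0 to 2 with single libraries left out. Naive KO against naive WT gave 10, and 7 to 17. The interaction gave 2, 0 with no trend, and 1 to 7.

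Differences far from called turned sign. When the B cell median was taken as a covariate, KO minus WT in TFH cells was -0.14 for H2-Ea-ps, -0.21 for H2-Eb1, -0.15 for H2-Aa, -0.12 for H2-Ab1 and -0.15 for Cd74, and in naive cells -0.077 for H2-Eb1, -0.091 for H2-Aa, -0.17 for H2-Ab1, -0.39 for Cd74 and 0.012 for H2-Q2. Without the second TFH libraries it was -0.0071 for H2-Ea-ps and -0.17 for Cd74. At an equal T cell identity level the naive differences were 0.056 for H2-K1, 0.0007 for H2-D1 and 0.088 for H2-Q2, and TFH minus naive was 0.056 in KO and 0.18 in WT cells for B2m and 0.0033 in KO cells for Ctss. With single libraries left out, KO minus WT in TFH cells ran from -1.41 to 2.81 for H2-Ea-ps, -1.41 to 2.81 for H2-Eb1, -1.36 to 2.90 for H2-Aa, -1.35 to 2.94 for H2-Ab1 and -1.35 to 2.73 for Cd74. In naive cells it ran from -0.083 to 1.31 for H2-Eb1, -0.12 to 1.33 for H2-Aa, -0.17 to 1.22 for H2-Ab1, -0.36 to 0.85 for Cd74, -0.10 to 0.026 for H2-K1 and -0.16 to 0.15 for H2-Q2. TFH minus naive of Ciita ran from -1.46 to 2.08 in KO and -1.13 to 1.26 in WT cells, and without the second TFH libraries was -1.46 and -1.13. The cause was not tested.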

Other observations

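One further class I row was looked at after its values had been seen. H2-L is known as a heavy chain gene of d haplotype mice that b haplotype mice lack, and its row has no entry in the annotation used here. It lay at 15.84 and 15.84 in TFH KO, 15.74 and 15.72 in TFH WT, 15.85 and 16.02 in naive KO, and 16.09 and 15.95 in naive WT. Without an annotated transcript, the row was left out of the comparison of windows shared between genes. Whether its reads came from H2-L or from a similar class I gene such as H2-D1 was not tested. The row is therefore not read as expression of a d haplotype gene. Unlike H2-Ea-ps, the row was not at the bottom of the scale in any naive library. The TFH minus naive log2 difference was -0.10 ± 0.10 in KO cells (limma adjusted p = 0.535) and -0.29 ± 0.10 in WT cells (limma adjusted p = 0.0498), and the interaction was 0.19 ± 0.14 (limma adjusted p = 0.997).

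Some class I rows were near copies of each other in the tables. H2-Q6 and H2-Q8 differed by at most 0.0032 on the log2 scale in any library, and H2-T22 and H2-T9 by at most 0.0300.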
